A study of Mus musculus with 2 samples.

Results

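The transcripts described here come from 9 genes for histones that are built into chromatin outside the bulk core set: the H2A variant genes H2afz, H2afx, H2afv and H2afy, the H3.3 genes H3f3a and H3f3b, and the linker histone genes Hist1h1c, H1f0 and H1fx. They were taken by name, as 9 of the 15364 genes in the deposited table of kept cells. The rule uses names only, but these genes and the gene lists below were chosen with earlier results of these data known. The study sorted cultured neural stem cells, derived from hippocampi of 6 weeks old C57BL6/J males, into wells and counted polyadenylated transcripts cell by cell by SORT-seq, in which every molecule is tagged once, close to its 3′ end. Cells were taken in 4 states and, within each state, from 4 sort gates, low to high, for punctate autofluorescence (light given off with no dye added). Activated cells were grown in serum-free medium with FGF2 and EGF at 20 ng/mL, the growth factors that keep neural stem cells dividing. Quiescent cells had lost EGF and received BMP4 at 50 ng/mL with FGF2, and counted as quiescent after 3 days. Exit cells had been moved from quiescence back to the activation medium with noggin, which binds BMP4, at 0.5 ug/mL, and were taken after 24 h or 48 h. All are cultured cells, so they model quiescence set by a medium and not the state of stem cells in the tissue.

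Histones wrap DNA into nucleosomes. The canonical core histones are made in S phase from messages that end in a conserved stem-loop in place of a poly(A) tail, whereas variants such as H2A.Z, H3.3 and macroH2A come from ordinary polyadenylated messages and enter chromatin outside replication with the help of dedicated chaperones. Linker histones, the H1 family, bind where DNA enters and leaves the nucleosome and compact the fibre. Their subtypes differ in when they are made, with H1.0 known for accumulating in cells that stop dividing.

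The kept cells numbered 174 quiescent, 151 at 24 h, 151 at 48 h and 164 activated, where the study's description gives 47 per condition, and 32 to 46 came from each gate. Each state was 1 culture, so differences between states have no replicate check and were given no test. The quiescent and 24 h cells shared 1 plate and the activated and 48 h cells the other, so in comparisons across plates the state and the plate cannot be told apart. Totals per cell had medians of 19270 to 35946 expected counts. Levels are CPM, the share of all counts of a state in the usual per-million unit, ranges in brackets are those of its 4 gates, and intervals are exact 95% intervals that cover counting error only. Since 1 tag is counted per molecule, CPM of different genes were compared without a length correction. All 9 neural stem cell markers had counts in every state, and the summed microglial and endothelial markers reached at most 1.97 and 2.13 CPM. The summed neuronal markers had 44.9 CPM in quiescent cells, 9.19 at 24 h, 5.33 at 48 h and 19.5 in activated cells, and the summed oligodendrocyte markers 13.7, 13.8, 6.06 and 1.07. The summed astrocyte markers went from 673 CPM in quiescent and 439 at 24 h to 126 at 48 h and 112 in activated cells. Of these 4 markers Aqp4, S100b and Gfap were lower in activated than in quiescent cells (1.68, 2.59 and 1.37 CPM in activated cells), while Aldh1l1 was higher (106 against 56.9 CPM). The part of these markers in the histone differences below was not tested. Fewer transcripts per cell and fewer cells with the transcript cannot be told apart from sums. For H2afz, H2afx and Hist1h1c the share of cells with the transcript at equal depth is therefore given below. A lower level in each cell also lowers that share, so it does not fully separate them.

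The assay reads poly(A) tails, which matters for H2afx and Hist1h1c. Among the coding transcripts of the 9 genes in GENCODE (GRCm38), these were the only ones with a histone stem-loop of 16 bases behind the stop codon, a motif found in 62 of 21877 protein-coding genes (0.283%). They are shown because they mark the genes whose counts cover only the polyadenylated form of the message, with the stem in capitals and the loop in lower case.
H2afx: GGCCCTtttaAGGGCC
Hist1h1c: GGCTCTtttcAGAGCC
The stem-loop began 46 bases after the stop codon in H2afx and 24 bases after it in Hist1h1c. The annotated transcripts ran on for 822 and 840 bases beyond it, to their annotated ends. The other 7 members had no such motif.

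The 9 transcripts together made up 2025 CPM in quiescent cells (gates 1907 to 2334), 1971 at 24 h (gates 1850 to 2338), 3093 at 48 h (gates 2737 to 3513) and 3424 in activated cells (gates 3194 to 3719). The 24 h level lay within the gate range of quiescent cells, and the 48 h and activated ranges lay above both. Within this sum the groups differed. The H2A variants went from 453 and 436 CPM in quiescent and 24 h cells to 1277 and 1593 in 48 h and activated cells. The H3.3 genes stayed between 1186 CPM at 24 h and 1533 in activated cells. The linker histones were highest at 48 h, with 460.3 CPM, against 275 in quiescent, 350.0 at 24 h and 298 in activated cells.

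**Figure D1:**
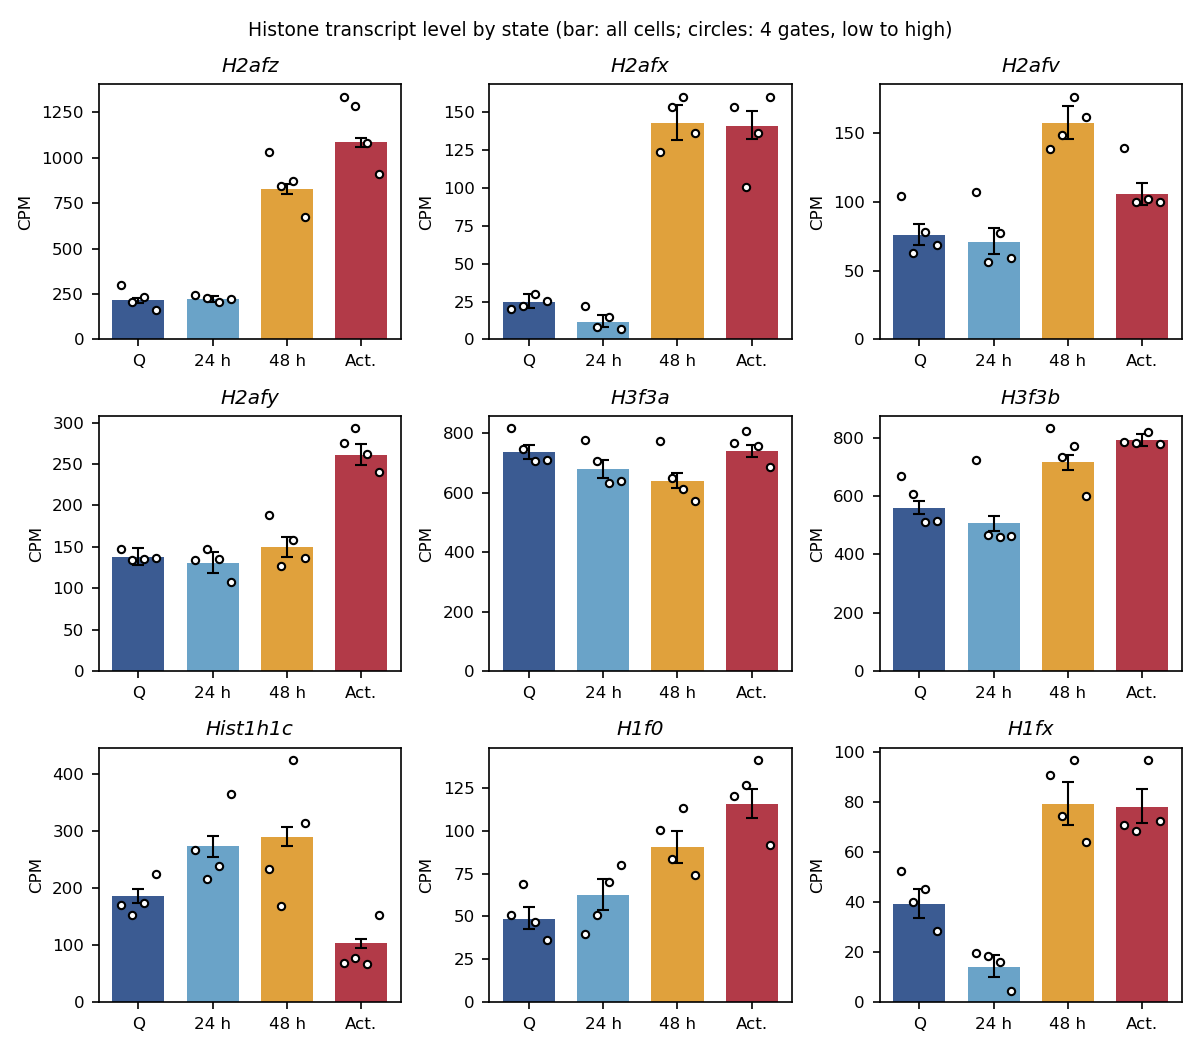
Transcript level (CPM, linear axes from 0) of each of the 9 histone genes in quiescent (Q), 24 h exit, 48 h exit and activated cells. Bars are all cells of a state with 95% counting intervals, and circles are its low, low-mid, mid-high and high gates from left to right; H2afz and H2afx stand higher in 48 h and activated cells, H3f3a is level, and Hist1h1c is lowest in activated cells.

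A 2-fold difference, a log2 ratio of at least 1 after adding 10 CPM to each level, was used to count members, and this threshold is no test. In activated against quiescent cells 3 of 9 members were past it upward, H2afz, H2afx and H1f0, where 9.12% of 11011 measured genes were, and 0 were past it downward, where 6.5% were. At 48 h against quiescent cells 2 of 9 were higher, H2afz and H2afx, where 4.47% of genes were, and 0 were lower, where 4.75% were. At 48 h against 24 h 4 of 9 were higher, H2afz, H2afx, H2afv and H1fx, where 4.49% of genes were, and 0 were lower, where 2.62% were. Within the plates the counts were smaller. At 24 h against quiescent cells 0 members were higher, where 1.23% of genes were, and 1 was lower, H1fx (log2 ratio -1.03), where 2.27% were. H1fx was short of 2-fold with the mean of single-cell CPM (-0.95), after thinning (-0.82) and without the high gate (-0.98). At 48 h against activated cells 1 was higher, Hist1h1c, where 1.25% of genes were, and 0 were lower, where 1.63% were. The comparisons share their states, so these counts are not independent of each other. The members were also chosen with earlier results of these data known, so the shares of all genes are given for scale only.

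H2afz encodes H2A.Z.1, a variant placed by the SRCAP and p400 complexes at promoters and needed for cell division. It lies on chromosome 3 at 137864487 to 137866922, on the plus strand (GRCm38). H2afz stood at 215 CPM in quiescent cells (gates 163 to 300.01), 222 at 24 h (gates 204 to 245), 827 at 48 h (gates 675 to 1029) and 1085 in activated cells (gates 910.2 to 1336). The gates of the quiescent and 24 h cells overlapped, those of the 48 h and activated cells overlapped, and the ranges of these sets did not touch. The log2 ratio of activated over quiescent cells was 2.28 (interval 2.19 to 2.38), and that of 48 h over 24 h was 1.85 (1.74 to 1.97). At 48 h H2afz was still below activated cells in each gate, by a log2 ratio of -0.39 (-0.45 to -0.33) over all cells. Almost every cell at 48 h or later had the transcript: after thinning each cell to 12488 counts it was found in 84.0% of quiescent and 89.3% of 24 h cells, and in 97.1% of 48 h and 99.4% of activated cells.

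H2afv encodes H2A.Z.2, nearly the same protein from another gene, on chromosome 11 at 6427229 to 6444443, minus strand. The coding sequences of H2afz and H2afv were identical at 306 of 387 bases (79.1%), so the genes differ in sequence, but 28.4% of the 60-base windows at the ends of H2afz transcripts also occur in 4 other genes, all of them predicted genes by name. H2afv stood at 76.0 CPM in quiescent cells (gates 63.2 to 105), 71.3 at 24 h (gates 56.4 to 108), 158 at 48 h (gates 139 to 177) and 106 in activated cells (gates 99.8 to 139.7). It was thus highest at 48 h, where its gates lay above those of the quiescent and 24 h cells but touched those of the activated cells. The log2 ratio of 48 h over 24 h was 1.05 (0.84 to 1.25) and that of activated over quiescent only 0.43 (0.26 to 0.59). As a result H2afz supplied 73.8% of the H2A.Z transcripts in quiescent cells (71.5% to 76.1%), 75.7% at 24 h, 84.0% at 48 h and 91.1% in activated cells (90.5% to 91.7%). The gate ranges of this share were 70.4% to 76.7%, 69.5% to 80.2%, 80.6% to 88.1% and 90.1% to 92.8% in that order, so the quiescent and 24 h cells overlapped and the 48 h and activated cells stood apart from them and from each other.

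The promoters of this pair are shown because the near-identical proteins came from genes with unlike levels. Each is the 250 bases before the RefSeq start (GRCm38.p6), 5′ to 3′ on the gene's strand, with matches to CCAAT on either strand in capitals. In H2afv the 1 match to TTTGAA, the core of the cell cycle homology region, is also in capitals, and lies on the other strand.
H2afz, chr3:137864237-137864486, plus strand: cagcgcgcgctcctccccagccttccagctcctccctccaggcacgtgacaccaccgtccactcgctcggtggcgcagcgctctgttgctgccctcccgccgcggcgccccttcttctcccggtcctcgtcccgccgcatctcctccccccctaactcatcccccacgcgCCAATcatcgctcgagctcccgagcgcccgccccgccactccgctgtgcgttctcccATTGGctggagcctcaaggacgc
H2afv, chr11:6444444-6444693, minus strand: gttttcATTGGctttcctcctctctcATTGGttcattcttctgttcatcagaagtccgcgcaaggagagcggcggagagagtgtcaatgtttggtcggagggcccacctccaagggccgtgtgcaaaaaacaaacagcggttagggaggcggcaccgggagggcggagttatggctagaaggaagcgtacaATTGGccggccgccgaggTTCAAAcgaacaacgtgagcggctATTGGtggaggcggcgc
H2afz held 2 matches to CCAAT and H2afv 4, and 33.8% of 32851 promoters of that length hold at least 1. TTTGAA occurs in 15.99% of them. None of the 8 members with a promoter in the table held an E2F octamer (TTTCCCGC, TTTGGCGC or TTTCGCGC), which 1.53% of promoters do. These matches are descriptions of letters and not of bound sites.

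H2afx encodes H2A.X, the variant that is phosphorylated around DNA double-strand breaks, on chromosome 9 at 44334694 to 44336077, plus strand. H2afx stood at 24.9 CPM in quiescent cells (gates 20.2 to 29.8), 11.8 at 24 h (gates 6.83 to 21.9), 143 at 48 h (gates 124 to 160.2) and 141 in activated cells (gates 100.6 to 160.4). The low and high sets were far apart. Over summed cells the 48 h and activated levels did not differ beyond their counting error (log2 ratio 0.01, interval -0.13 to 0.15). Cell by cell they did. After thinning to equal depth H2afx was found in 49.3% of 48 h cells (40.7% to 57.9%) and 72.8% of activated cells (65.1% to 79.6%). It was found in 17.9% of quiescent and 13.9% of 24 h cells. The thinned log2 ratio of 48 h over activated cells was -0.23. Without thinning the median cell had 68.1 CPM at 48 h and 119 in activated cells. The 12.1-fold step in CPM from 24 h to 48 h was the widest span of any member between states, with a log2 ratio of 2.81 (2.51 to 3.08) that was larger than in 99.9% of genes. The 24 h value rests on 36 counts. The 24 h cells were lower than the quiescent cells by a log2 ratio of -0.68 (-0.99 to -0.34), below 0 in 3 of 4 gates.

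H2afy encodes macroH2A1, whose large extra domain marks silent chromatin, on chromosome 13 at 56073619 to 56136361, minus strand. H2afy stood at 138 CPM in quiescent cells (gates 134 to 147), 130.4 at 24 h (gates 107 to 147), 149.7 at 48 h (gates 127 to 188) and 261 in activated cells (gates 240.3 to 293). Its 48 h level was still near the quiescent one: the first 3 states overlapped in their gates, and the activated cells stood above all of them. The log2 ratio of 48 h over activated cells was -0.76 (-0.89 to -0.64), below 0 in 4 of 4 gates and lower than all but 3.75% of genes. That of activated over quiescent cells was 0.88 (0.75 to 1.00).

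H3f3a and H3f3b encode the same protein, H3.3, the replacement form of histone H3, from chromosomes 1 (180800832 to 180813943, minus strand) and 11 (116021912 to 116027962, minus strand). H3f3a stood at 736 CPM in quiescent cells (gates 708 to 817), 679.5 at 24 h (gates 631 to 778), 639.9 at 48 h (gates 571 to 775) and 741 in activated cells (gates 687 to 809). Its highest and lowest states differed 1.16-fold in CPM, the narrowest span of the 9 members, and all neighbouring states overlapped in their gates. H3f3b stood at 561 CPM in quiescent cells (gates 511 to 671), 506 at 24 h (gates 461 to 725), 716 at 48 h (gates 602 to 833) and 792 in activated cells (gates 779 to 821). Its activated gates lay above those of the quiescent and 24 h cells and inside those of the 48 h cells. H3f3a therefore made up 56.8% of H3.3 transcripts in quiescent and 57.3% in 24 h cells, but 47.2% at 48 h and 48.3% in activated cells, and the gate ranges of the first 2 states (54.9% to 58.1% and 51.8% to 60.3%) lay above those of the last 2 (44.3% to 48.7% and 46.9% to 50.8%). The H3f3a count is the less certain of the pair, because 28.6% of its end windows also occur in 32 other genes, 3 of them named H3f3a-ps1, H3f3a-ps2 and H3f3c, while none of the windows of H3f3b do.

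**Figure D2:**
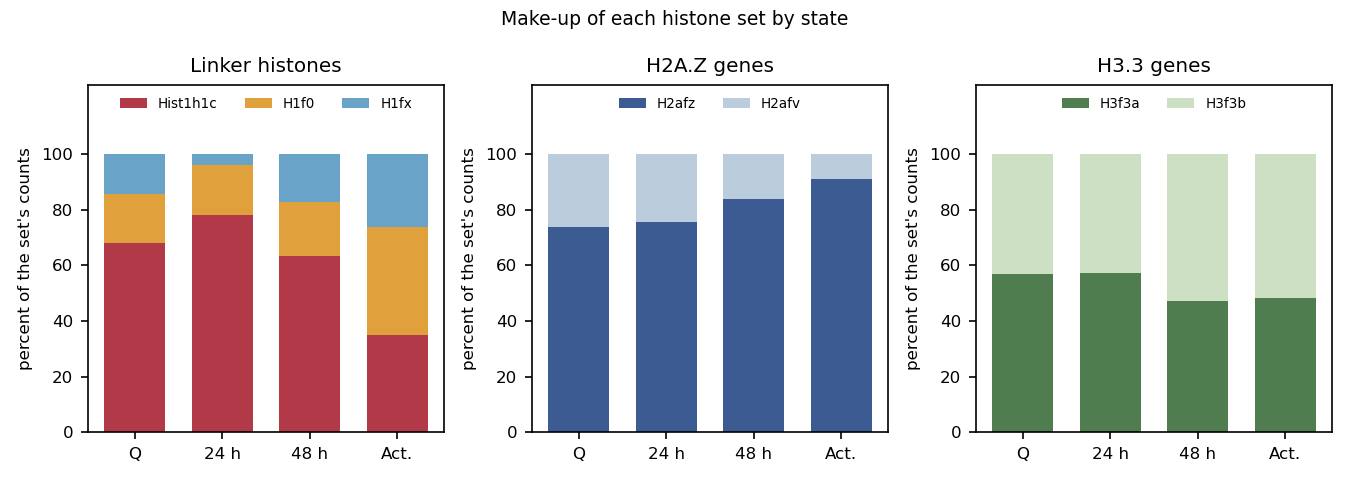
Share of counts (percent, stacked to 100) of each gene within the linker histones, the H2A.Z genes and the H3.3 genes in quiescent (Q), 24 h, 48 h and activated cells. The Hist1h1c share is 78.1% at 24 h and 34.9% in activated cells, the H2afz share climbs to 91.1%, and the H3f3a share steps from 57.3% at 24 h to 47.2% at 48 h.

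Hist1h1c, which encodes the somatic linker histone H1.2, lies in the main histone gene cluster on chromosome 13 at 23738808 to 23740367, plus strand. Hist1h1c stood at 187 CPM in quiescent cells (gates 153 to 225), 274 at 24 h (gates 216 to 365), 291 at 48 h (gates 169.5 to 426) and 104 in activated cells (gates 67.2 to 153). It was lowest in activated cells, and the other 3 states overlapped. After thinning to equal depth Hist1h1c was found in 76.9% of quiescent, 85.2% of 24 h, 80.0% of 48 h and 47.5% of activated cells. The activated gates lay below the quiescent ones only just, with 152.6 CPM in the activated high gate against 152.7 in the quiescent low-mid gate. The log2 ratio of 48 h over activated cells was 1.40 (1.27 to 1.53), positive in 4 of 4 gates (1.00 to 2.50) and above 99.5% of genes. That of 24 h over quiescent cells was 0.53 (0.40 to 0.66), above 0 in 4 of 4 gates, and that of activated over quiescent cells was -0.79 (-0.92 to -0.65), below 0 in 4 of 4.

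Its promoter is shown because it holds the letters of the H1 box, AAACACA, an element first described in linker histone promoters, together with a CCAAT match, both in capitals (RefSeq, GRCm38.p6).
Hist1h1c, chr13:23738557-23738806, plus strand: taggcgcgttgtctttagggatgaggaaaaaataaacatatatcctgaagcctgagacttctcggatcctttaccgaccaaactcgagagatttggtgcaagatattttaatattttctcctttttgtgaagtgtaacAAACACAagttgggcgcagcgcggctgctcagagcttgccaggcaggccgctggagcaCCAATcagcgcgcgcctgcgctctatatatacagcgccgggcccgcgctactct
AAACACA (or TGTGTTT on the other strand) occurs in 6.25% of promoters of that length. Among the members H3f3a also held it, and H1f0 and H1fx held neither it nor CCAAT. For these 3 genes the RefSeq start differs from the gene bounds given in this text. Their windows were chr1:180813606-180813855, chr15:79027962-79028211 and chr6:87981483-87981732. The match and the absences hold for these windows only, and bases before the other starts were not searched.

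H1f0, for the replacement linker histone H1.0, lies on chromosome 15 at 79028450 to 79030504, plus strand. H1f0 stood at 48.8 CPM in quiescent cells (gates 36.5 to 68.8), 62.4 at 24 h (gates 39.9 to 79.7), 90.2 at 48 h (gates 74.3 to 113) and 116 in activated cells (gates 91.6 to 141). The order ran upward from quiescent to activated, with every neighbouring step overlapping and the 2 ends apart. The log2 ratio of activated over quiescent cells was 1.09 (0.91 to 1.28). H1fx, for the divergent linker histone H1X, lies on chromosome 6 at 87980421 to 87981637, minus strand. H1fx stood at 39.3 CPM in quiescent cells (gates 28.4 to 52.3), 14.1 at 24 h (gates 4.55 to 19.9), 79.1 at 48 h (gates 64.2 to 96.7) and 78.2 in activated cells (gates 68.6 to 96.9). The 24 h cells lay below the quiescent cells in all 4 gates, with a log2 ratio of -1.03 (-1.33 to -0.71) that rests on 43 counts at 24 h. The step from 24 h to 48 h was 5.60-fold in CPM. Its genes' exons overlap Gm5577 and Gm47286, those of H2afx overlap Gm44335, of H2afy Gm47071, of H1f0 Gm49544 and of H3f3a Gm17275 and H3f3aos, and how the authors split such reads is not given in the sources used here.

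The make-up of the 3 linker transcripts differed between states. Hist1h1c supplied 68.0% in quiescent cells, 78.1% at 24 h, 63.2% at 48 h and 34.9% in activated cells, with gate ranges of 58.4% to 77.6%, 73.4% to 81.7%, 51.7% to 69.5% and 22.0% to 48.2%. Only the activated range stood clear of the rest among these 4 states. H1f0 supplied 17.8%, 17.8%, 19.6% and 38.8% in the same order, so in activated cells its share was the highest of the 3. In the activated high gate the order was the opposite, with 48.2% for Hist1h1c and 28.9% for H1f0. H1fx supplied 14.3%, 4.03%, 17.2% and 26.3%.

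Per spike-in the picture shifts for all genes. Counts per count of the ERCC spike-in RNAs moved the median log2 ratio of all genes from 0.07 to 0.47 in activated over quiescent cells, from -0.01 to -0.29 in 24 h over quiescent and from -0.08 to -0.38 in 48 h over activated cells. On that scale H3f3a was not level: it had 56.4 counts per 1000 spike-in counts in quiescent, 37.7 in 24 h, 56.0 in 48 h and 87.9 in activated cells. Hist1h1c had 14.3, 15.2, 25.5 and 12.3, which kept the 48 h cells highest and the activated cells lowest.

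Each cell carries a phase that the authors assigned from expression scores, so a comparison of phases uses values from the same cells and was not tested. Nearly all 24 h cells were in G0 (138 of 151), as were 146 of 174 quiescent cells, while at 48 h 22 cells were in G0, 21 in G1, 50 in S and 58 in G2M. The activated cells had 1 in G0, 23 in G1, 61 in S and 79 in G2M. The 48 h culture had all phases filled, so levels by phase are given there first. Its phases went with the authors' clusters. All 22 G0 and 16 of 21 G1 cells were in cluster 0, which also holds 145 of the 24 h cells. Cluster 3 held 49 of 50 S and 55 of 58 G2M cells. At 48 h the phase and how far a cell had left quiescence thus cannot be told apart. H2afx stood at 16.8 CPM in G0, 11.1 in G1, 82.3 in S and 275 in G2M cells, a log2 ratio of G2M over G0 of 3.41 (2.75 to 4.02). Its G0 and G1 values rest on 9 and 6 counts. H2afz stood at 206, 484, 838 and 1127 in the same order, already 2.36-fold higher in G1 than in G0. At 48 h 7 of 9 members were past 2-fold higher in G2M than in G0 cells, where 7.88% of 8117 measured genes were, all but H2afy (0.81, interval 0.40 to 1.23) and H3f3a (0.35, 0.16 to 0.54).

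In activated cells H2afx again differed most, with 30.4 CPM in G1, 96.0 in S and 215 in G2M. H2afz had 523, 1103 and 1276, and H3f3a 700.3, 809 and 705. H3f3b was more tied to the phase at 48 h than H3f3a: it had 344 CPM in G0 and 984 in G2M cells, so the H3f3a share of H3.3 went from 60.2% (55.6% to 64.7%) in G0 to 40.4% (38.5% to 42.2%) in G2M. In activated cells that share was 53.5% in G1, 50.1% in S and 45.3% in G2M. In the few quiescent cells called S, 11 in number, H2afz was 493 CPM against 129.9 in G0, and Hist1h1c was 55.1 against 172, the opposite direction. The Hist1h1c value in these S cells rests on 15 counts (interval 30.8 to 90.8 CPM). Hist1h1c was higher in the 12 quiescent G1 cells than in G0, with 270 CPM. At 48 h it was also higher in S than in G0, with 259 against 136 CPM.

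**Figure D3:**
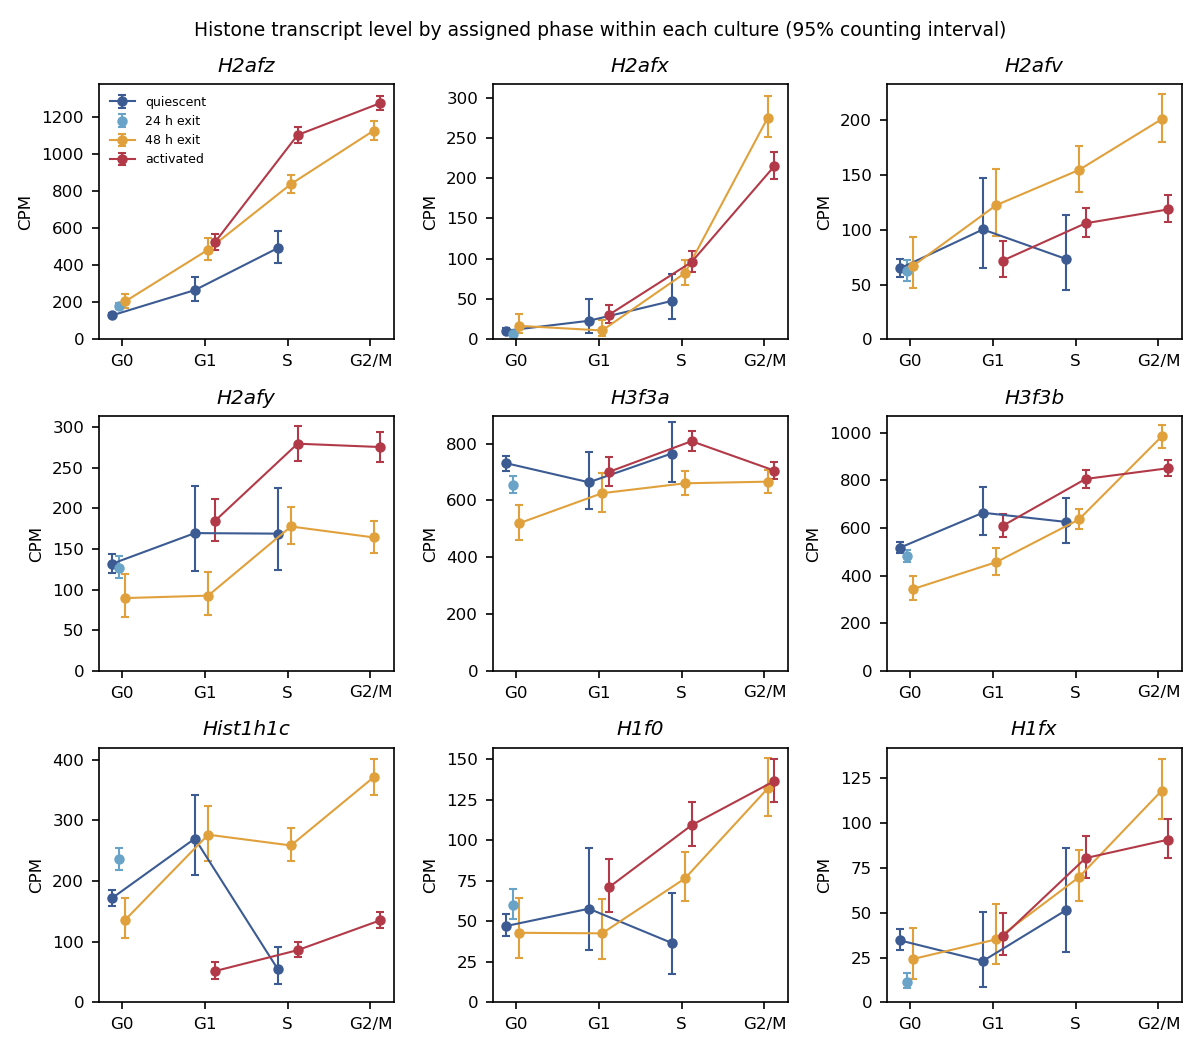
Transcript level (CPM, linear axes from 0) of each gene by assigned phase in each culture, with 95% counting intervals; classes under 10 cells are left out, so the 24 h culture has G0 only and the activated culture no G0. H2afx is low outside S and G2/M, H3f3a is nearly level, and Hist1h1c is higher at 48 h than in activated cells in each shared phase.

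For H2afz and H2afx the difference between 48 h and 24 h was smaller within G0 than over all cells. Among G0 cells H2afz stood at 129.9 CPM in quiescent, 179.7 at 24 h and 206 at 48 h, a log2 ratio of 48 h over 24 h of 0.18 (-0.11 to 0.47) against 1.85 over all cells. H2afx stood at 10.8, 6.54 and 16.8 CPM in those G0 cells, with 0.70 (0.01 to 1.36) against 2.81 over all cells. Its 24 h and 48 h values in G0 rest on 18 and 9 counts. The lower H1fx of 24 h cells was still there in G0, with 11.6 against 34.6 CPM in quiescent cells (-1.04, interval -1.37 to -0.70). Hist1h1c in G0 was 172 in quiescent, 236 at 24 h and 136 CPM at 48 h. G0 cells at 48 h were below G0 cells at 24 h (log2 ratio -0.75, interval -1.09 to -0.42), but against quiescent G0 cells the interval spanned 0 (-0.31, -0.65 to 0.01), although over all cells the 48 h culture was the highest. H3f3a and H3f3b were also lower in 48 h G0 cells than in quiescent G0 cells, by log2 ratios of -0.48 (-0.66 to -0.31) and -0.58 (-0.79 to -0.36).

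Between 48 h and activated cells of the same phase, Hist1h1c differed most of the 9. It had 277 against 51.6 CPM in G1, 259 against 86.1 in S and 371 against 135.5 in G2M cells, log2 ratios of 2.22 (1.82 to 2.62), 1.48 (1.25 to 1.72) and 1.39 (1.22 to 1.56). H2afv was higher at 48 h in the same 3 phases, by 0.69, 0.51 and 0.71. H2afy was lower in all 3, by -0.92, -0.63 and -0.71, each with an interval below 0. H2afx differed in sign, with -0.94 (-1.62 to -0.12) in G1 on 6 and 33 counts and 0.34 (0.17 to 0.51) in G2M.

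**Figure D4:**
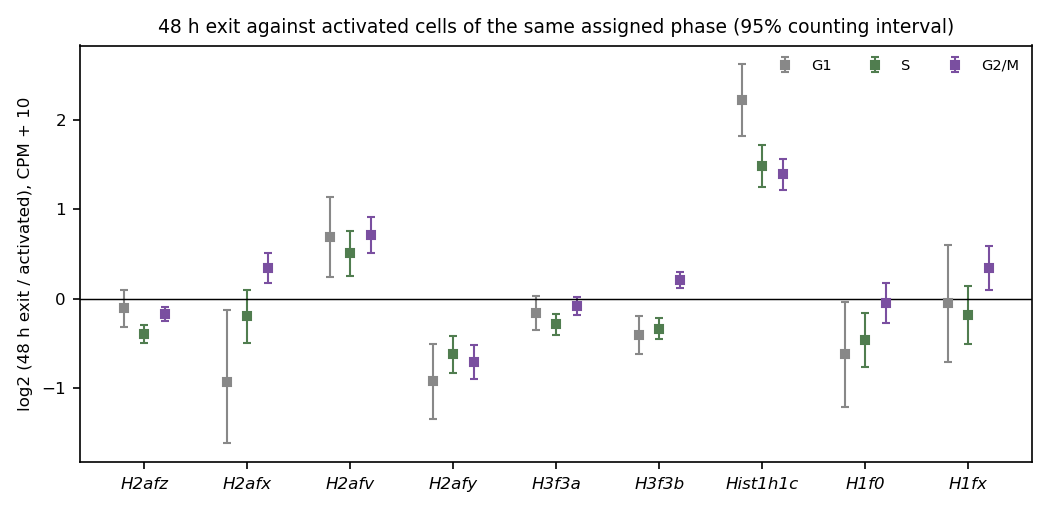
Log2 ratio of 48 h exit over activated cells (CPM + 10 on each side) within G1, S and G2/M cells for the 9 genes, with 95% counting intervals and a line at 0. Hist1h1c is the highest in each phase, from 1.39 to 2.22, H2afv lies above 0 and H2afy below 0 in all 3.

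The authors' 4 clusters largely follow the states: cluster 1 is all quiescent (166 cells), cluster 2 is activated but for 1 cell (164 cells), cluster 0 holds 145 cells of 24 h and 41 of 48 h, and cluster 3 holds 109 of its 122 cells from 48 h. How the clusters were made is not given in the sources used here, and they may rest on the same transcripts, so levels by cluster are a description. Hist1h1c was 237 CPM in cluster 0, 166 in cluster 1, 105 in cluster 2 and 356 in cluster 3. H2afx was 9.19, 13.7, 141 and 189 in that order, and H2afz 227, 154, 1086 and 1023. The 48 h culture is split between clusters 0 and 3, and its cluster 0 cells included all 22 of its G0 cells and 16 of its G1 cells. Within that culture each of the 9 transcripts was higher in cluster 3, from H2afx with 188 against 15.0 CPM (log2 2.99, interval 2.52 to 3.43) to H3f3a with 678 against 531 (0.35, 0.21 to 0.48).

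Between the high and low autofluorescence gates, the 4 cultures gave a test of a difference common to them, with edgeR's quasi-likelihood test on 8 sums and the culture as a block. Of the 9 members 1 was called, Hist1h1c, which rose in the high gate, where 1.9% of 8739 genes were called higher and 0.481% lower. Hist1h1c stood at 225 CPM in the high and 170.1 in the low gate of quiescent cells, 365 and 267 at 24 h, 315 and 233.5 at 48 h, and 153 and 69.8 in activated cells. The high gate was above the low gate in 4 of 4 cultures. The edgeR log2 ratio was 0.74 (SE 0.13), with a Benjamini-Hochberg adjusted p of 0.0045 over all genes. The median cell was higher too, with 155 against 132 CPM in quiescent, 287 against 186 at 24 h, 193 against 117 at 48 h and 72.1 against 45.0 in activated cells.

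The gates did not form a ladder. In the 48 h culture the mid-high gate was the highest for Hist1h1c (426 CPM) and the low-mid gate the lowest (169.5), and in activated cells the lower 3 gates lay between 67.2 and 78.0 CPM, with 25.7% of the high gate's Hist1h1c counts in 1 cell. Depth and phase moved with the gate: the median total went from 18910 to 40452 in quiescent and from 25566 to 55395 in activated cells, low to high, and the share of S and G2M cells from 81.0% to 60.0% at 48 h and from 100% to 78.3% in activated cells. The median mitochondrial share per cell, low to high gate, went from 5.83% to 7.98% in quiescent cells, 7.92% to 8.52% at 24 h, 6.93% to 10.3% at 48 h and 5.46% to 5.85% in activated cells. Within G0 cells the Hist1h1c log2 ratio of high over low gate on totals was 0.02 (-0.27 to 0.32) in quiescent and 0.18 (-0.16 to 0.52) in 24 h cells, both intervals spanning 0. Within G2M cells it was 1.02 (0.69 to 1.37) at 48 h and 1.22 (0.83 to 1.63) in activated cells, and within S cells 0.38 (-0.06 to 0.82) and 1.73 (0.87 to 2.60). With all cells thinned to 12488 counts the 4 cultures gave 0.40, 0.47, 0.26 and 0.82, the value at 48 h with an interval that spanned 0 (-0.07 to 0.60). These splits by phase and depth and the median cell were added after the data were seen. The call was lost without the 48 h culture (edgeR log2 ratio 0.77, adjusted p = 0.053), where 20 of 8559 genes were called. It was also lost without the culture block (edgeR log2 ratio 0.68, adjusted p = 0.9997), where 0 of 7792 genes were called. Both ratios were near the 0.74 over all 4 cultures. Over the other alternatives the edgeR or DESeq2 adjusted p ran from 1.62e-05 to 0.045. Of 4 astrocyte markers 1 was called, S100b, which rose in the high gate (edgeR log2 ratio 1.21, adjusted p = 0.0029), and Gfap had 1.12 (adjusted p = 0.10). Their part in the Hist1h1c difference, and that of depth, phase and the mitochondrial share, was not tested beyond these values.

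H2afz was the next member by p and did not pass, with an edgeR log2 ratio of -0.41 (SE 0.12) and an adjusted p of 0.088. It stood at 163 against 300.01 CPM in quiescent cells, 220.0 against 245 at 24 h, 675 against 1029 at 48 h and 910.2 against 1336 in activated cells, high against low gate. All 4 cultures were lower in the high gate, and 24 h the least. The call differed between alternatives. TMM, the scaling used, placed the median of all genes at -0.00, whereas on total counts that median was -0.16, the H2afz ratio -0.56 and its adjusted p 0.021 (edgeR). A linear trend over 4 gates, with TMM, gave -0.36 and an adjusted p of 0.012 (edgeR). Both settings also called more genes in all, 330 of 8739 on total counts and 638 of 8934 with the trend, against 208 of 8739. The log2 ratios of the other 7 members lay between -0.33 (H1fx) and 0.19 (H2afx) with edgeR adjusted p from 0.42 to 0.95.

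**Figure D5:**
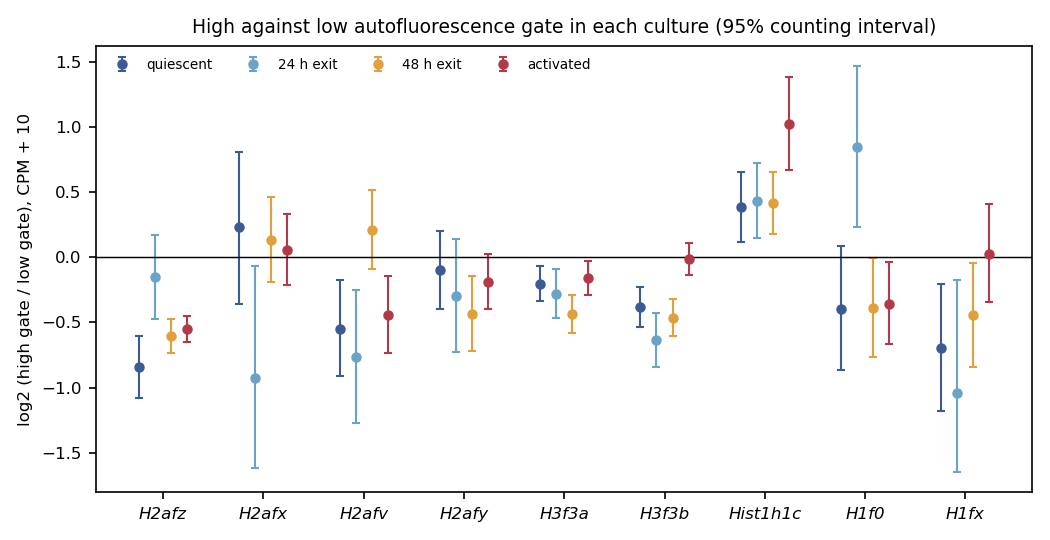
Log2 ratio of the high over the low autofluorescence gate (CPM + 10 on total counts) for the 9 genes in each culture, with 95% counting intervals and a line at 0. Hist1h1c lies above 0 in all 4 cultures, H2afz is below 0 in each, and H1f0 is above 0 at 24 h only.

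Of the other 37 histone gene rows, 9 had at least 100 counts. Hist1h2bc, an H2B gene, was the one most like Hist1h1c, with 127 CPM in quiescent, 162 at 24 h, 206 at 48 h and 78.1 in activated cells. Its log2 ratio of 48 h over activated was 1.29 (1.15 to 1.44). Cenpa, the centromeric H3, had 21.4, 16.4, 151 and 185 CPM, and H2afy2, for macroH2A2, 4.36, 5.25, 14.1 and 23.01. The H3 genes Hist2h3c1 and Hist2h3c2 went the other way, with 24.5, 22.7, 4.12 and 1.52 CPM and 16.2, 18.1, 4.85 and 2.59 CPM. Their 48 h and activated values rest on 17 and 10 counts for Hist2h3c1 and 20 and 17 for Hist2h3c2. Canonical core histone messages end in a stem-loop in place of a poly(A) tail. For such genes, Hist1h2bc, Hist2h3c1 and Hist2h3c2 among them, the assay counts only polyadenylated forms and not the whole message. The remaining 4, H2afj, Hist3h2a, Hist2h2be and Hist1h4i, were within 2-fold in all 5 comparisons. None of the 9 was called between gates, with edgeR adjusted p from 0.071 (Hist2h3c2) to 0.80 (Hist2h2be).

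Over the 16 sums per culture and gate, among genes with 200 counts or more in total, the genes with the highest Pearson correlation of log2(CPM + 10) with a member were listed as a description. The sums share plates and depth. For Hist1h1c they were Hist1h2bc (0.95), mtCo3 (0.93) and mtNd4 (0.92), both mitochondrially encoded, and the median mitochondrial share of a cell's counts was 5.42% in activated, 6.94% in quiescent, 8.11% in 24 h and 8.88% in 48 h cells. For H2afz they were Hmgb1 (0.99), Hnrnpab (0.99) and Tuba1b (0.99), for H2afx Casc5 (0.99), Sgol1 (0.98) and Trim59 (0.98), and for H2afv 2700099C18Rik (0.90), Nucks1 (0.89) and B230120H23Rik (0.87). H2afy was most like Nras (0.96), Fbln2 (0.96) and Eya2 (0.95). Among the genes most like H3f3b were Nol9 and Tmem14c (0.95 each), and H3f3a was most like Trappc11, Cdc42 and Psmb1 (0.86 each). H1f0 was most like Tmem109 (0.94), Xpo5 (0.92) and Sav1 (0.91), and H1fx like Lsm2 (0.96), Brca1 (0.94) and Naa40 (0.94).

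Chaperones and exchange factors hand histones to chromatin and swap them. In activated against quiescent cells 17 of 39 measured genes of this list were past 2-fold higher, where 9.12% of all genes were, and 0 lower, where 6.5% were, with a median log2 ratio of 0.87 against 0.07 for all genes. At 48 h against 24 h 11 of 38 were higher, where 4.49% of all genes were, and 0 lower, where 2.62% were. In both within-plate comparisons 0 of 39 were past 2-fold, where 1.23% to 2.27% of all genes were in each direction. Chaf1b, a subunit of the CAF-1 complex that loads new H3 and H4 behind the fork, had 7.06 CPM in quiescent, 4.27 at 24 h, 47.8 at 48 h and 53.5 in activated cells. Npm1, the nucleolar chaperone nucleophosmin, had 463.6, 463.6, 967 and 1718, and Ruvbl2, an ATPase of the H2A.Z exchange complexes, 32.8, 27.2, 83.4 and 138. Lower in activated than in quiescent cells were Cabin1, of the H3.3 chaperone complex HIRA (25.1 against 54.2 CPM), and Supt6, which escorts RNA polymerase II (55.6 against 84.1).

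Of the genes that process histone messages, 2 of 14 measured were past 2-fold higher in activated than in quiescent cells, where 9.12% of all genes were. In the other direction 0 of 14 were lower, where 6.5% of all genes were. The 2 higher ones were Slbp, the stem-loop binding protein (78.5 against 25.5 CPM), and Snrpb (281 against 92.2). Srrt had 124 against 59.4 CPM, and Lsm10 (13.9 against 11.4) and Sympk (7.31 against 7.06) barely differed. All 12 cell cycle reference genes were past 2-fold higher in the same comparison and in 48 h over 24 h, where 9.12% and 4.49% of all genes were. At 24 h over quiescent cells 0 of 12 were, where 1.23% of all genes were. The log2 ratios of these 12 genes in activated over quiescent cells ran from 1.98 (Pcna) and 2.06 (Mcm5) to 2.89 (Mki67), 3.06 (Ccna2) and 3.13 (Ccnb1). Between gates, edgeR called 2.38% of all 8739 genes, 1.9% higher and 0.481% lower in the high gate. In the chaperone list it called 1 of 38 tested genes, Set, which fell in the high gate (edgeR log2 ratio -0.49, SE 0.12, adjusted p = 0.032). Called as well were 0 of 13 processing genes and 2 of 12 cell cycle genes. These 2 were Top2a (edgeR log2 ratio 0.81, adjusted p = 0.021) and Ube2c (1.20, adjusted p = 0.00062), both higher in the high gate. Set, Top2a and Ube2c are named here because they were called.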

How the data were processed

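The authors deposited a table per plate and a merged table of kept cells, in expected counts. From their values these are molecule counts corrected for molecules sharing 1 of 4096 identifiers: inverting that correction gave whole numbers within 0.0001. The submitters' processing notes list Seurat 4.1.1, BWA 0.7.15 and R 4.2.0, and mm10 beside hg19 as builds, without roles. The authors also deposited, per cell, the gene count, the percent of mitochondrial and ribosomal counts, phase scores whose score lists are not given in the sources used here, phase and cluster labels, and cytometer values in arbitrary intensity units (as deposited, per the file headers). Sums per state, gate, phase and cluster were taken over the 640 kept of 768 wells, since 128 wells are not in the per-cell table. Both plates use the same barcodes, and 269 barcodes are among kept wells of both. CPM, log2 ratios with 10 CPM added among genes with at least 20 counts in the compared states together, exact Poisson, Clopper-Pearson and conditional binomial intervals, and cells thinned to 12488 counts were computed with Python 3.11.15, numpy 2.4.6, pandas 2.3.3 and scipy 1.17.1, and figures with matplotlib 3.10.9. Gates were tested on rounded sums with edgeR 4.0.16 (TMM, filterByExpr, quasi-likelihood test, 3 residual degrees of freedom, Benjamini-Hochberg at 0.05), with DESeq2 1.42.0 as an alternative, under R 4.3.3. The cultures are of 4 states, so p-values set the gate difference against its spread between them. For each gene edgeR drew that spread largely from all genes, with a median prior of 17.6 degrees of freedom beside the 3 residual ones. The p-values therefore do not rest on a gene's own spread over 4 cultures alone. The ratios and the gate test were tested on simulated data. All 9 members matched RefSeq and 8 had a promoter. Members and lists were chosen with earlier results of these data known. Named genes were the members, other histone genes with at least 100 counts, of each list the 3 highest and 2 lowest log2 ratios of activated over quiescent, and for each member its 3 most alike genes, of which 1 is not reported here.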

Additional observations from a re-analysis of the deposited data

Results flagged for a closer look

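H1f0 went opposite ways with the gate in different cultures. On total counts its log2 ratio of the high over the low gate was 0.85 at 24 h, with an interval above 0. It was -0.39 at 48 h (-0.76 to -0.01) and -0.36 in activated cells (-0.67 to -0.04). Total counts placed the median of all genes at -0.16 in the gate test, so part of the lower values goes with the scaling. With TMM the ratios were 0.94 at 24 h, -0.18 at 48 h and -0.31 in activated cells. The 24 h low gate held only 20 H1f0 counts. In CPM the 24 h culture had 79.7 in the high and 39.9 in the low gate, the 48 h culture 74.3 and 100.3, and the activated culture 91.6 and 120.0. The difference between cultures was not tested, since each gate of a culture is 1 sum.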

How the results depend on the processing

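Counts of members past 2-fold are thresholded and moved as follows. At 24 h against quiescent cells 1 member was lower, 2 with 1 CPM added in place of 10, 2 among cells above the median total, 0 with the mean of single-cell CPM, 0 after thinning, and 0 to 1 when each gate was left out. For these alternatives no share of all genes is given here, so the counts cannot be set against all genes. Per ERCC count 7 members were higher in activated than in quiescent cells in place of 3, 4 were higher at 48 h than in quiescent cells in place of 2, and at 48 h against activated cells 0 were higher in place of 1 and 1 was lower in place of 0. That scaling moved all genes: 22.6%, 6.03%, 0.686% and 6.82% of them were past 2-fold in these 4 directions, in place of 9.12%, 4.47%, 1.25% and 1.63%. Without mitochondrial and ribosomal protein genes in the totals 4 were higher at 48 h than in quiescent cells. The median log2 ratio of all genes moved from -0.02 to 0.08 there. Leaving out each gate gave 0 to 1 members lower in activated than in quiescent cells, the 1 being Hist1h1c without the high gate. At 48 h against 24 h no count moved by over 1.5 times under these alternatives. Between gates edgeR called 1 member and 208 of 8739 genes in the main setting. A linear trend over 4 gates called 2 members and 638 of 8934 genes. On total counts 2 members and 330 of 8739 genes were called. Without the culture block edgeR called 0 members and 0 of 7792 genes. When each culture was left out 0 to 1 members were called, 0 of them without 48 h, where 20 of 8559 genes were. No paired analysis was possible because, between states, each state has 1 culture and the plates share only 1 replicate number; the gate test itself was within cultures, with the culture as the block. Small ratios changed sign, among them H3f3a at 48 h against 24 h, -0.09 on CPM and 0.56 per ERCC count (median of all genes -0.03 and 0.38), and H1f0 at 24 h against quiescent, 0.30 on CPM and -0.09 per ERCC count (median -0.01 and -0.29). Depth limits H2afx and H1fx at 24 h, with 36 and 43 counts.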

Other observations

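The share of a gene's counts in its highest cells differed between members and states. In activated cells the top 17 of 164 cells held 53.2% of the Hist1h1c counts, against 20.5% for H3f3a, 20.9% for H2afz, 33.0% for H2afx, 33.7% for H1fx, 37.4% for H1f0 and 37.3% for the core histone gene Hist1h2bc, and the highest cell had 103 Hist1h1c counts where the median had 2. The top 18 of 174 quiescent cells, 16 of 151 at 24 h and 16 of 151 at 48 h held 43.0%, 39.8% and 43.2% of the Hist1h1c counts. Other members had a larger share there. In quiescent cells the same cell number held 70.0% of the H2afx, 49.7% of the H2afz and 45.0% of the H1fx counts. At 24 h it held 80.6% for H2afx, 69.8% for H1fx, 40.5% for H1f0 and 40.4% for H2afz, and at 48 h 49.7% for H2afx and 45.2% for H1f0. H2afx and H1fx had only 36 and 43 counts at 24 h, with a median of 0 per cell. With so few counts a large share in 16 cells is not particular to these genes.

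Hist1h2bc, a core histone gene whose level over states resembled that of Hist1h1c, also varied with it from cell to cell. Spearman's rho of their CPM, given as a description over cells of 1 culture that share depth, was 0.56 at 48 h, 0.37 in quiescent, 0.33 in activated and 0.22 in 24 h cells. With the other linker genes Hist1h1c had weaker values at 48 h, 0.14 for H1f0 and 0.26 for H1fx, and in activated cells 0.16 and 0.09.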
